A study of Mus musculus with 2 samples.

Results

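In the aorta-gonad-mesonephros region (AGM) of E11.5 mouse embryos, cells sorted as VE-cadherin positive were set against the VE-cadherin negative cells of the same tissue. Every well carried 1 imaged cell on an ICELL8 nanowell chip, and wells with 500 or more detected genes were taken: 287 of 372 positive and 338 of 339 negative wells. These 625 wells were part of 2644 such wells in the 8 sorted pools of the series and of 2954 wells in all. All embryos were wildtype C57Bl/6, all sorted cells were negative for the dead-cell dye 7AAD, and how many embryos were pooled is not given in the sources used here. The other pools, used only to show where the E11.5 AGM pair stands apart, were the same gates of the E11.5 yolk sac, on the same chip, and of the AGM and yolk sac at E9.5, on the other chip. The chip also carried control wells, with RNA from the mouse embryonic stem cell line E14FF. Each pool was 1 sample, so no test was possible, no p-value is given, and the differences describe these pools.

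The AGM surrounds the dorsal aorta, where endothelial cells of the aortic floor turn into the first definitive blood stem and progenitor cells. VE-cadherin is the adhesion protein of endothelial junctions. It also stays for a time on blood cells that have just left the endothelium, so a positive gate can hold endothelium, emerging blood cells and cells bound to vessels. The negative gate holds the surroundings: mesenchyme, muscle precursors, nerve precursors, mesonephric and coelomic epithelium, and blood cells that do not carry the protein.

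Promoter sequence is shown for 3 genes that stood higher in the positive pool, each of which held a searched motif. They encode the platelet and myeloid chemokine Pf4, the macrophage surface protein Fcrls and the transmembrane protein Tmcc2, found in red cells. Each line is the 250 bases before a RefSeq transcript start (GRCm38.p6), in the direction of the gene, with motif letters in capitals. They lie at chr5:90772185-90772434 (plus strand), chr3:87263525-87263774 (minus strand) and chr1:132367949-132368198 (minus strand, 1 of the gene's several starts).
Pf4: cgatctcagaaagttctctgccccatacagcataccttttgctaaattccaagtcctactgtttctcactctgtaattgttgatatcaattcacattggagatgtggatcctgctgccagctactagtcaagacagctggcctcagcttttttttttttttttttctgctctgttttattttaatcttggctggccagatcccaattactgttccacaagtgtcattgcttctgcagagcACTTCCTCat
Fcrls: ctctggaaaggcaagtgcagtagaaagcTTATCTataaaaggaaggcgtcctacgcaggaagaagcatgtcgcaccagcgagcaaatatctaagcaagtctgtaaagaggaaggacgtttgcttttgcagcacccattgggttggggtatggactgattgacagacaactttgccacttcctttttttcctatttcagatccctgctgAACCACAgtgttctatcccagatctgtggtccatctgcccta
Tmcc2: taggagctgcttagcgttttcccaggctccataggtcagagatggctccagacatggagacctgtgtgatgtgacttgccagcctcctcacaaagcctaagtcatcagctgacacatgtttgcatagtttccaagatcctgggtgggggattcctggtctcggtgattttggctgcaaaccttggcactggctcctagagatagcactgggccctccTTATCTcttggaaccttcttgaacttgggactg
Both strands were searched for 4 strings, none of which contains another. GAGGAAGT is bound by Spi1 and other ETS factors. TGTGGTT is bound by Runx factors. AGATAA is bound by the zinc finger factors Gata1 to Gata6. CATTGT is bound by Sox factors. In the Pf4 window the capitals are GAGGAAGT read on the other strand, 10 bases before the start. In the Fcrls window they are AGATAA (222 bases before) and TGTGGTT (42 bases before), and in the Tmcc2 window AGATAA (33 bases before), all on the other strand. Of all 27025 genes with a promoter entry, 2.79% held GAGGAAGT, 5.08% TGTGGTT, 11.4% AGATAA and 12.2% CATTGT in a window of this length. Among the 6584 of them that were measured in the pair, from which the named genes come, the shares were 2.78%, 3.61%, 6.99% and 7.28%. Among the 14 genes higher in the positive pool that are described next, 10 had an entry. Of the 10, 1 held each of GAGGAAGT, AGATAA and CATTGT, the last in Apoe. Among the 14 genes named on the lower side, 11 had an entry. Of the 11, 1 held AGATAA (Gmps) and 1 held CATTGT (Prickle1). A match is a string of letters and was not tested as a binding site.

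The positive pool summed to 850258 counts and the negative pool to 1093602, with medians of 2532 and 2806.5 counts and of 749 and 1295 genes per well. Of the positive wells, 85 fell under 500 genes and were left out, against 1 negative well. Haemoglobin RNA took a median of 25.6% of a positive well's counts and 3.45% of a negative well's, mitochondrial RNA 7.07% and 5.85%, and 1 ribosomal RNA row 19.3% and 16.2% of the pools' counts. On the 2 chips 473 well barcodes recurred. Levels are given as CPM, a gene's counts scaled to the total of its pool, and differences as log2 ratios of CPM, positive over negative, relative to the median log2 ratio of all genes measured. A gene was measured when it had 20 or more counts over the pair. A gene scarce in 1 pool passes that minimum only through the other, where it is high, as for 20 measured genes at 0 counts in the negative and 56 at 0 counts in the positive pool. Counts of list members higher or lower are therefore descriptions of the measured members, and are to be read beside the shares of all genes that follow. Intervals are exact 95% intervals and cover counting error only. Where 1 pool had 0 counts, the ratio is a bound against a floor of 3 counts in that pool. In sums over a pool, fewer cells of a type and less RNA per cell cannot be told apart.

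Of 8708 measured genes, 1301 (14.9%) stood at least 2-fold higher in the positive pool and 1351 (15.5%) at least 2-fold lower, relative to all genes, 30.5% together. The corresponding shares higher, lower and together were 10.8%, 13.4% and 24.2% in the E9.5 AGM, 19.1%, 9.71% and 28.8% in the yolk sac of that stage and 11.2%, 11.6% and 22.7% in the E11.5 yolk sac. The median gene itself was lower in the positive pool by a log2 ratio of -0.80 on the plain CPM scale, where haemoglobin takes 25.5% of the positive pool's total and 3.47% of the negative pool's. Without centring on that median, 593 genes were higher and 3477 lower. Part of these differences was shared by every gate pair of the series: 179 of the 1301 were also at least 2-fold higher in the other 3 pairs, and 47 of the 1351 also lower. A gene was taken as set apart in the E11.5 AGM when its ratio was at least 2-fold and lay further out, by 1 or more on the log2 scale, than in each other pair that measured it. This held for 227 genes on the higher side (2.61% of measured genes) and 219 on the lower side (2.51%). The 14 named in each direction are those whose intervals lay furthest from the other pairs, among well-covered genes. The next genes in that order were Reln (3.07) and Slc4a1 (4.22) on the higher side and Fat4 (-1.21) and Sgcd (-2.76) on the lower.

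**Figure D1:**
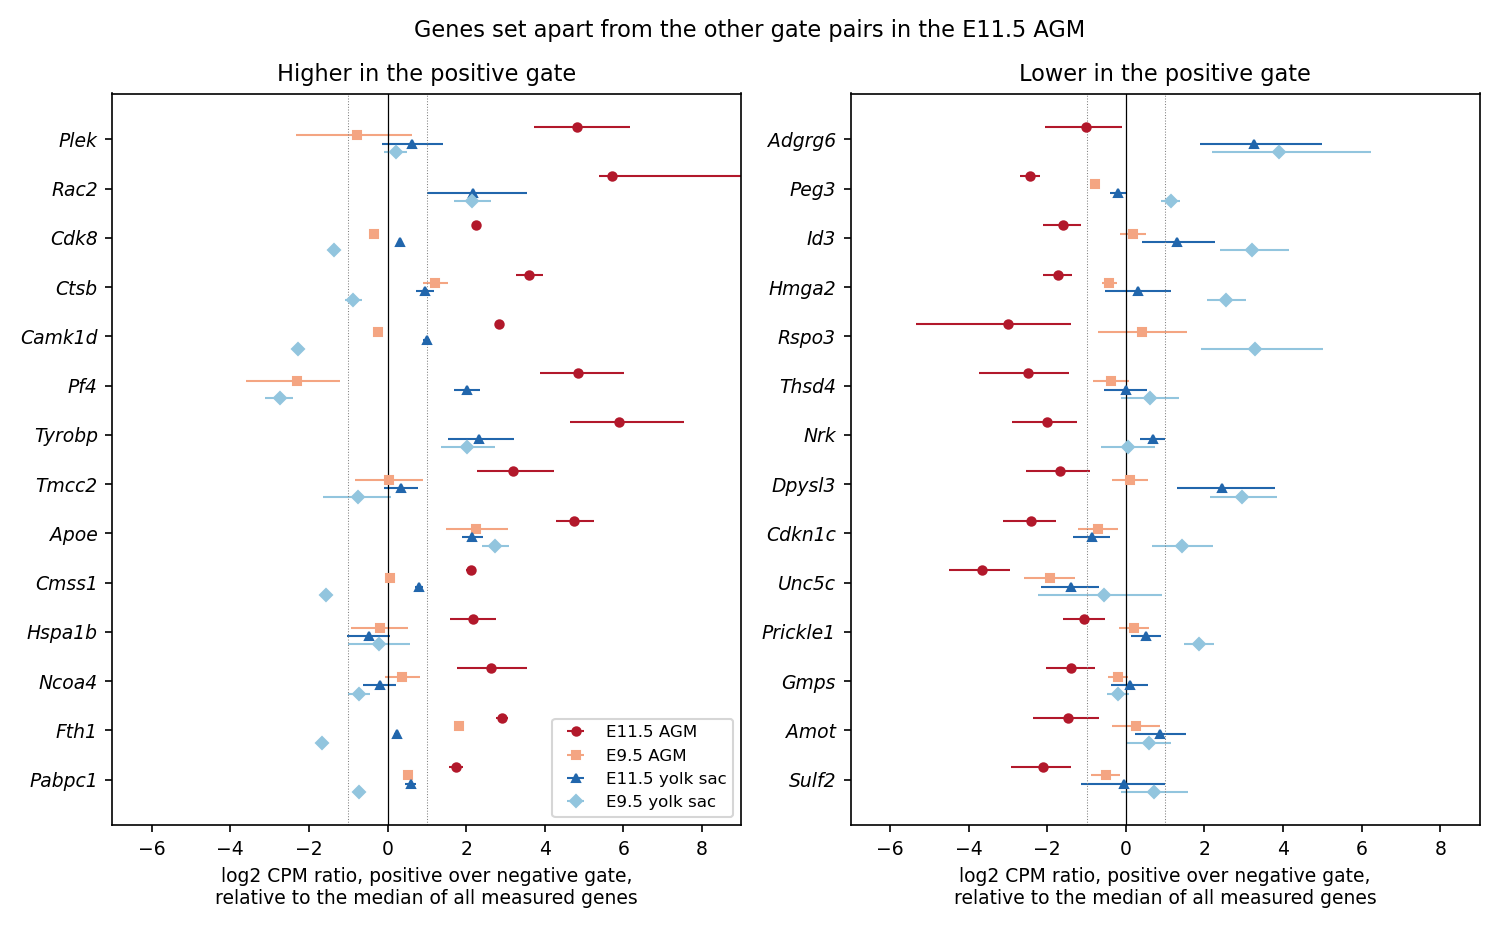
Log2 CPM ratio (positive over negative gate, relative to all measured genes) of the 14 genes set apart in each direction, in the 4 gate pairs, with exact 95% intervals of counting error. Red circles (E11.5 AGM) lie to the right of the other pairs in the left panel and to the left of them in the right panel, as the rule required. Rac2 is a lower bound at 5.71 because its negative pool had 0 counts, and pairs with under 20 counts are not drawn.

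Genes of leukocytes and macrophages led the genes set apart on the higher side. Rac2, the small GTPase of blood cells (chromosome 15, 78559167 to 78572783, GRCm38), had 70 counts in 37 positive wells (82.3 CPM) and 0 counts in the negative pool. It was at least 52.3-fold higher relative to all genes (log2 bound 5.71). In both yolk sac pairs, where both gates held Rac2 counts, its ratio was 2.14 (E9.5) and 2.18 (E11.5). Plek (pleckstrin, a protein kinase C substrate of platelets and leukocytes; chromosome 11, 16971206 to 17052381) stood at 104 CPM against 6.40, a ratio of 4.82 (3.71 to 6.17). Its ratio in the other pairs, always given in the order E9.5 AGM, E9.5 yolk sac and E11.5 yolk sac, was -0.78, 0.20 and 0.63, each with an interval that included 0. Tyrobp, the adaptor that carries signals of activating myeloid receptors, stood at 156 CPM against 4.57. That is a ratio of 5.90 (4.64 to 7.54), beside 2.03 and 2.34 in the yolk sac pairs and too few counts in the E9.5 AGM. Plek and Tyrobp were, like the other genes set apart and named here, chosen for intervals far from the other pairs. That their intervals lay above every other measured pair follows from that choice.

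Apoe, the lipid carrier that macrophages release, had 563 CPM in the positive pool and 36.6 in the negative pool, a ratio of 4.75 (4.28 to 5.25). It was higher in the positive gate of every pair, with 2.24, 2.74 and 2.16 in the others. Ctsb, the lysosomal protease cathepsin B, had 554 CPM against 79.6, a ratio of 3.60 (3.27 to 3.95), beside 1.21, -0.87 and 0.95. Pf4 (chromosome 5, 90772435 to 90773383) changed side between pairs. In the E11.5 AGM it stood at 135 CPM against 8.23, a ratio of 4.84 (3.86 to 6.00), and in the E11.5 yolk sac it was also higher (2.02). In both pairs of the earlier stage it was lower in the positive gate (AGM -2.30, yolk sac -2.75). Of the 10 megakaryocyte and platelet markers, 2 were measured in the E11.5 AGM, Pf4 and Plek, and the platelet proteins Gp1bb and Treml1 had 0 counts in both pools.

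The macrophage list was higher in its measured members. Of its 15 markers 14 were in the table and 12 were measured and all 12 stood at least 2-fold higher, with a median of 5.80 (2.73 to 7.47), against 14.9% of all measured genes. The summed level of the list was 1518 CPM against 72.2, and Cd68 and Timd4 had 0 counts in the negative pool. Several measured members thus passed the count minimum mainly through the positive pool, so their direction was largely set by the minimum. The largest was Lyz2, the lysozyme of myeloid cells, at 279 CPM against 2.74, a ratio of 7.47 (5.90 to 9.76). Mrc1, the mannose receptor, had 312 against 20.1 CPM, and Fcer1g, a chain shared by Fc receptors, 163 against 5.49. In the other pairs the list had medians of 0.42 (4 measured), 2.03 (11 measured) and 3.32 (10 measured). The phagocytosis and complement list, which shares 7 genes with the macrophage list and holds Apoe and Ctsb, had 15 of 17 measured members higher and 1 lower, with a median of 4.75.

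Wells carrying these markers were counted after each well was thinned to 1000 counts, which left 286 positive and 333 negative wells. Of the positive wells, 61 (21.3%, 16.7 to 26.5) held 3 or more of 12 endothelial markers, and of the negative wells 1 (0.300%). Macrophage markers, 3 or more, were found in 31 positive wells (10.8%, 7.48 to 15.0) and in 0 of 333 negative wells. By the floor of 3 counts of the total that allows up to 0.901%, and the exact 95% upper limit is 1.10%. Without thinning the numbers were 136 and 2 wells for endothelial and 56 and 3 wells for macrophage markers. In 46 wells of stem cell RNA, which lacks both cell types, 0 and 1 wells reached 3 such markers unthinned, at a median depth of 2980.5 counts. Among the 287 positive wells, 119 held the endothelial set alone, 39 the macrophage set alone, 17 both and 112 neither. Scrublet scores marked 3 of the 287 positive and 3 of the 338 negative wells as doublets, and all were kept.

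**Figure D2:**
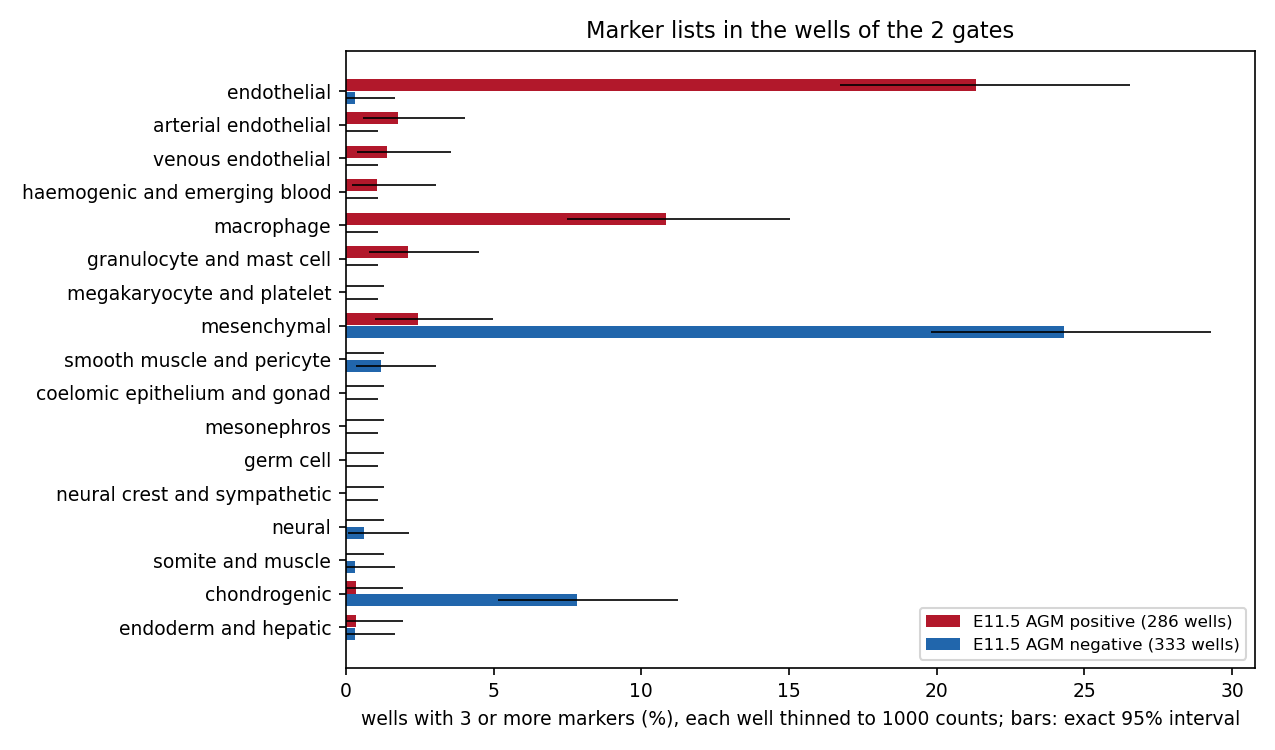
Share of E11.5 AGM wells (in percent, each well thinned to 1000 counts) with 3 or more markers of each cell type list, red for the positive and blue for the negative gate, with exact 95% intervals. Endothelial (21.3%) and macrophage (10.8%) marker wells stand in the positive gate, and mesenchymal (24.3%) and chondrogenic (7.81%) marker wells in the negative gate. The erythroid list is not drawn because haemoglobin counts occurred in every well.

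The 56 positive wells with 3 or more macrophage markers held 25.7% of the pool's counts. They carried 48 of the 70 Rac2 counts, 45 of 88 Plek, 91 of 115 Pf4, 369 of 479 Apoe, 327 of 471 Ctsb and 50 of 76 Hspa1b counts. None of these 6 genes was among the markers that chose the wells, which Tyrobp was. Wells with the endothelial set alone held 40.9% of the pool's counts but 11 Rac2, 15 Plek, 9 Pf4, 70 Apoe and 67 Ctsb counts. With those endothelial wells alone as the positive pool of every pair, 8 of the 14 genes were still set apart: Plek, Cdk8, Camk1d, Tmcc2, Cmss1, Hspa1b, Ncoa4 and Pabpc1. Rac2, Tyrobp, Apoe, Ctsb, Pf4 and Fth1 were not. Their ratios in the E11.5 AGM were then 4.25 for Rac2, 3.86 for Tyrobp, 3.19 for Apoe, 2.00 for Ctsb, 2.38 for Pf4 and 2.51 for Fth1, and Rac2, Tyrobp and Pf4 then had under 20 counts over the pair.

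**Figure D3:**
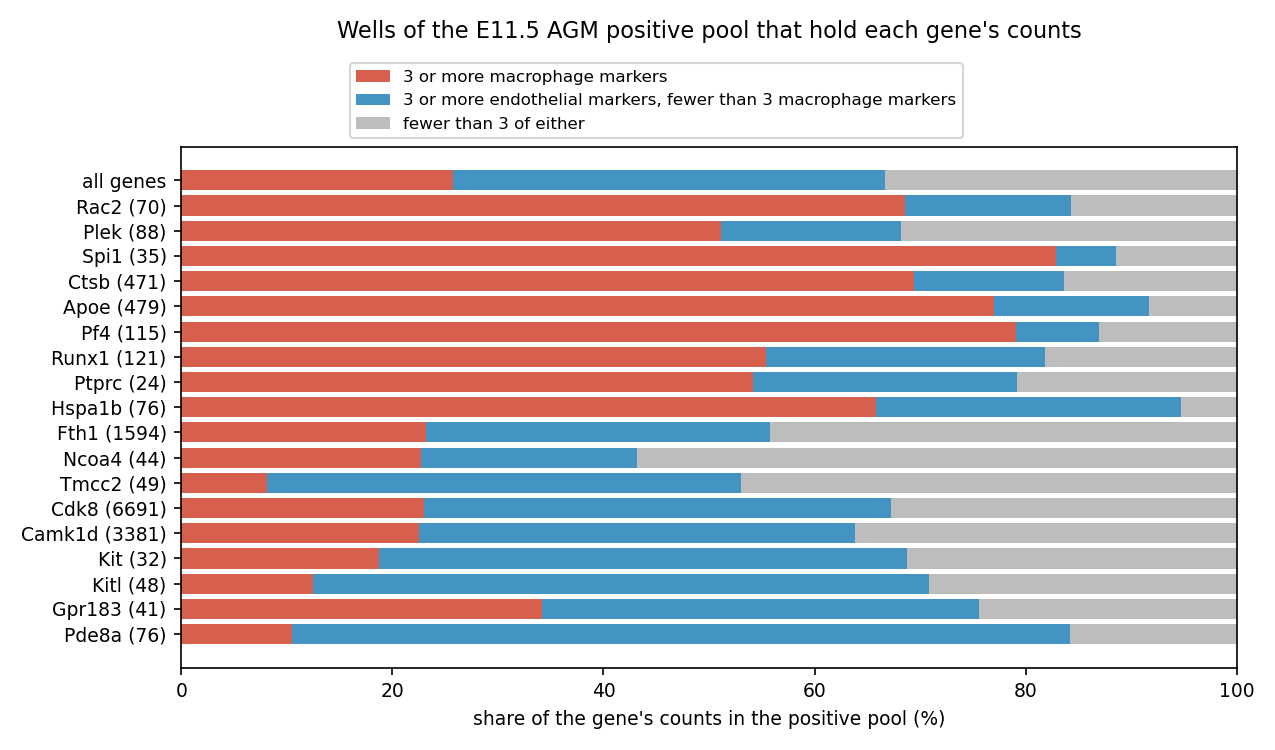
Share of each gene's counts in the E11.5 AGM positive pool (in percent, with the gene's counts in brackets) by wells with 3 or more macrophage markers, wells with 3 or more endothelial but fewer than 3 macrophage markers, and the rest. Rac2, Spi1, Ctsb, Apoe and Pf4 lie mostly in macrophage-marker wells, while Cdk8 and Camk1d follow the bar of all genes and Pde8a lies mostly in endothelial-marker wells.

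Further genes, of any function, were hardly measured in the other pairs, having under 20 counts in at least 2 of them. There were 124 such genes among the 1301 on the higher side, and 12 passed the minimums of counts and wells. The 6 named were Fcrls, Gpr183, Spi1, Aif1, Csf1r and Pde8a. Fcrls had 68 counts in 33 positive wells and 0 in the negative pool, at least 50.8-fold higher. Spi1, the transcription factor PU.1 of myeloid cells, had 35 and 0 counts, at least 26.1-fold higher, and 29 of the 35 lay in macrophage-marker wells. Aif1, an actin-binding protein of macrophages, had 71 and 3 counts, a ratio of 5.73 (4.12 to 8.04). Csf1r, the receptor for the macrophage growth factor, had 90 and 5 counts, a ratio of 5.33 (4.06 to 6.99).

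The other 2 had another distribution over wells. Gpr183, a receptor for oxysterols that guides immune cells, had 41 counts in 28 positive wells and 0 in the negative pool, at least 30.6-fold higher. Of its counts 14 lay in macrophage-marker wells and 17 in endothelial-marker wells. Its gene overlaps Ubac2 on the opposite strand, and whether counting used strand is not given in the sources used here. Pde8a, a phosphodiesterase of cyclic AMP, had 76 and 4 counts, a ratio of 5.41 (4.00 to 7.32), and 56 of the 76 lay in endothelial-marker wells. Both Gpr183 and Pde8a were also higher in the positive gate of the E9.5 AGM (3.59, a bound, and 4.84) and had under 20 counts in both yolk sac pairs.

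Among genes of the endothelial to blood transition, Runx1, its master transcription factor (chromosome 16, 92601466 to 92826149), had 142 CPM in the positive and 21.9 in the negative pool, a ratio of 3.50 (2.86 to 4.19). It was higher in the other 3 positive gates as well, at 4.68, 1.42 and 1.29, so it was not set apart in this pair. Of its 121 positive counts 67 lay in macrophage-marker wells, 32 in endothelial-marker wells and 22 elsewhere. Ptprc (CD45, the surface protein of blood cells) had 24 and 3 counts, a ratio of 4.16 (2.44 to 6.54). Kit, the receptor of stem and progenitor cells, had 32 and 29 counts, a ratio of 1.31 (0.54 to 2.08), which was 0.51 on the plain CPM scale. Itga2b (CD41) had 5 and 3 counts and was not measured. Of the 15 genes of the haemogenic list 6 were measured and 4 stood higher, against 14.9% of all genes, with a median of 2.40. The median was 1.36 without macrophage-marker wells, 1.46 with endothelial-marker wells alone and 1.13 with 50 or more counts per gene. Wells with 3 or more of that list, thinned, numbered 3 of 286 in the positive gate and 0 of 333 in the negative gate.

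Of the 10 genes of granulocytes and mast cells 7 were measured, all 7 higher, against 14.9% of all genes, with a median of 7.36. The list summed to 47.5 CPM in the negative pool, so several members passed the count minimum mainly through the positive pool. That minimum largely set their direction. Without 11 wells described here, 4 were measured and the median was 3.46, below the macrophage (5.42), endothelial (5.20) and erythroid (3.83) medians of the same setting. S100a8, a calcium-binding protein of neutrophils (chromosome 3, 90668978 to 90670035), had 2065 CPM against 18.3, a ratio of 7.62 (6.99 to 8.34). S100a9, its partner, had 1291 against 13.7 CPM, Ngp (neutrophil granule protein) 439.9 against 4.57, Ltf (lactotransferrin) 175 against 1.83, and Mpo (myeloperoxidase) 147 against 3.66. In the E11.5 yolk sac S100a8 stood at 43 counts in each gate. These genes rested on few wells. Of the 1756 S100a8 counts 1665 lay in 11 wells with 3 or more markers of the list, 658 of them in 1 well, and 368 of the 374 Ngp counts lay in the same 11 wells. The 11 wells held a median of 1214 genes, and 5 of them also held 3 or more macrophage markers and 5 held 3 or more endothelial markers. S100a8 was also found as exactly 1 count in 56 of the 80 positive wells that held it. Without the 11 wells the ratios were 3.47 for S100a8, 3.46 for S100a9, 1.54 for Ngp and 3.09 for Ltf. All of these genes were among the markers that chose the 11 wells. Their shares in those wells, and the lower ratios and list median without them, were therefore partly set by that choice. The rows of S100a8, S100a9 and Ngp were not analysed here at E9.5, and Ltf was not measured there.

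Red cell genes were higher in the positive gate, in contrast to the yolk sac of E9.5. All 9 measured erythroid markers stood higher, against 14.9% of all genes, with a median of 3.75 (2.75 to 4.22). Hba-a1, an alpha globin, took 58796 CPM in the positive and 6362 CPM in the negative pool, and Hbb-y, the embryonic beta-type globin, had a ratio of 3.52 (3.50 to 3.54). The erythroid medians of the other pairs were 2.54, -1.86 and 0.19. With endothelial-marker wells alone as the positive pool, all 9 were still higher, with a median of 3.48. Every well of both gates held counts of Hbb-y, so its counts in a well are no sign that the well's cell was a red cell. The stem cell RNA wells of the chip held haemoglobin as a median of 2.31% of their counts.

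Also set apart were Fth1, Ncoa4 and Tmcc2. Fth1 stayed at least 2-fold higher in each alternative run, but was no longer set apart in wells with 1000 or more genes, with TMM scaling, equal weight per well, a minimum of 1 count, no centring, totals without haemoglobin and mitochondrial genes, or a gap of 2. Fth1, the heavy chain of the iron store ferritin (chromosome 19, 9980598 to 9985098), had 1875 CPM against 433, a ratio of 2.91 (2.77 to 3.06), beside 1.81, -1.66 and 0.23 in the other pairs. Ncoa4, the receptor that takes ferritin to the lysosome, had 51.7 against 14.6 CPM, a ratio of 2.62 (1.77 to 3.55). Tmcc2 had 49 counts against 12, a ratio of 3.19 (2.26 to 4.24), beside 0.05, -0.74 and 0.34. Of the 16 genes of the iron and haem list 14 were measured and all 14 stood higher, against 14.9% of all genes. The list had a median of 2.11. Alas2, which starts haem synthesis in red cells, had 315 against 45.7 CPM, a ratio of 3.59 (3.15 to 4.05). Alas2 overlaps Apex2 on the opposite strand, as Plek does Cnrip1 and Ctsb does Fdft1, so such counts are uncertain. Across the 287 positive wells, Spearman's rho of the level of Fth1 with the haemoglobin share was 0.44, and across the 338 negative wells it was 0.086, as descriptions over wells that share 1 pool. Fth1 has processed copies elsewhere in the genome that its reads can match, so its counts are uncertain.

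Cdk8, Camk1d and Cmss1 were among the abundant genes. At 1000 counts per well, Cdk8 was found in 286 of 286 positive and 305 of 333 negative wells, Camk1d in 269 and 170, and Cmss1 in 259 and 196. Cdk8, a kinase of the Mediator complex (chromosome 5, 146231230 to 146302874), had 7869 CPM against 2882 and counts in 287 of 287 positive and 336 of 338 negative wells. Its ratio was 2.25 (2.19 to 2.31), against -0.33, -1.35 and 0.32 in the other pairs. Camk1d, a calcium and calmodulin dependent kinase, had 3976 against 971 CPM, a ratio of 2.83 (2.73 to 2.94), and Cmss1, a ribosome biogenesis factor, 2211 against 886, a ratio of 2.12 (2.01 to 2.23). All 3 were spread over the classes of positive wells like the pool's counts as a whole. In the stem cell RNA wells of the chip Cdk8 stood at 38064 CPM, Camk1d at 629 and Cmss1 at 663. Across wells of the positive pool, Spearman's rho of the 3 genes was 0.33, 0.31 and 0.32 with the ribosomal RNA row and -0.23, -0.39 and -0.24 with the number of genes in the well. In the negative pool it was 0.35, 0.41 and 0.44 with the ribosomal RNA row and -0.30, -0.059 and 0.00024 with the number of genes. These too are descriptions. The part of the ribosomal RNA row and of the number of genes per well in the ratios of the 3 genes was not tested. Cmss1 overlaps Filip1l on the opposite strand over 220034 bases.

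Pabpc1, the poly(A)-binding protein, had 728 CPM against 381, a ratio of 1.73 (1.55 to 1.92), and 0.93 on the plain CPM scale. Hspa1b, an inducible heat shock protein, had 89.4 CPM against 34.7, a ratio of 2.16 (1.58 to 2.77), beside -0.19, -0.21 and -0.48 in the other pairs. Hspa1a, its near-identical copy, had 279 against 198 CPM, a ratio of 1.29 (1.02 to 1.56), and reads of the 2 genes may be split between them. Of the immediate early and stress list, which holds both, 4 of 16 measured genes were higher and 3 lower, against 14.9% and 15.5% of all genes, with a median of 0.02, or -0.78 without centring. Jun was at 0.04 and Fos at -0.70. Leaving out wells with 3 or more macrophage markers brought Hspa1b to 1.11.

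**Figure D4:**
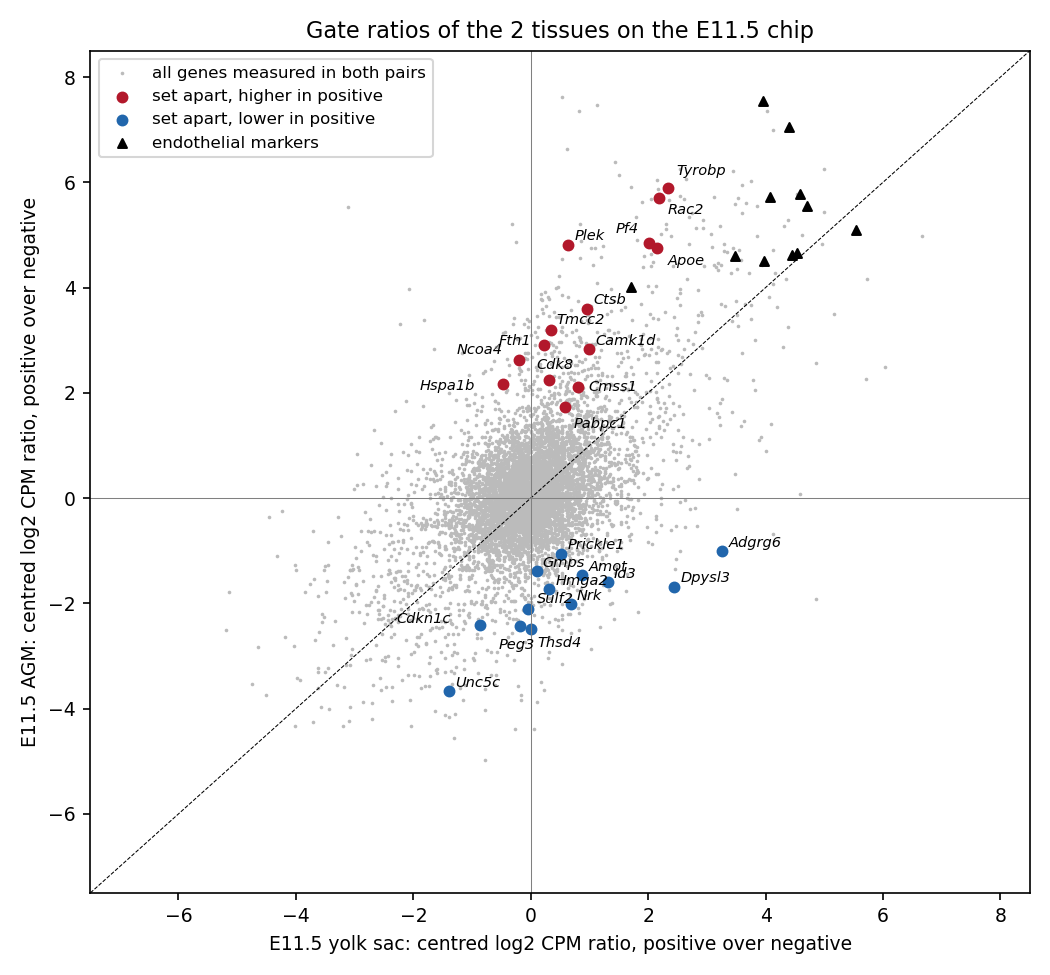
Centred log2 CPM ratio (positive over negative) of each gene measured in both tissues of the E11.5 chip, yolk sac on the horizontal and AGM on the vertical axis. Endothelial markers (triangles) lie far out in both tissues, while the genes set apart (red and blue) lie nearer to 0 in the yolk sac or, like Adgrg6 at 3.26 there and -1.01 in the AGM, on the other side.

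On the lower side, the genes set apart included several of growth control. Peg3, an imprinted zinc finger gene (chromosome 7, 6703892 to 6730431), had 154 CPM in the positive and 1451 in the negative pool, a ratio of -2.43 (-2.70 to -2.18). It was found in 91 of 287 positive and 296 of 338 negative wells. In the other pairs its ratio was -0.78, 1.14 and -0.19, and in the second of these the positive gate was the higher one. Cdkn1c, an imprinted brake on the cell cycle, had 25.9 against 240.5 CPM, a ratio of -2.42 (-3.11 to -1.79), beside -0.70, 1.44 and -0.86. Hmga2, a chromatin protein of growing embryonic tissue, had 80.0 against 461 CPM, a ratio of -1.73 (-2.11 to -1.36), beside -0.42, 2.54 and 0.32. Of 15 measured imprinted growth genes 8 stood lower and 0 higher, against 15.5% of all genes lower, with a median of -1.24. The E11.5 yolk sac also had 8 of 15 lower and 0 higher, with a median of -1.12. As a list these genes were therefore not particular to the E11.5 AGM. At E9.5 the list medians were -0.42 in the AGM and 1.31 in the yolk sac. In the E11.5 AGM Igf2, the fetal growth factor, was at 0.05 and H19, the noncoding RNA beside it, at 0.34. On the plain CPM scale both were below 0 (-0.75 and -0.46).

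Id3, an inhibitor of helix-loop-helix factors and a target of BMP signals (chromosome 4, 136143497 to 136145755), was set apart by its opposite place in the yolk sac. It had 49.4 CPM in the AGM positive pool against 262 in the negative, a ratio of -1.60 (-2.11 to -1.13). Both yolk sac pairs had it higher in the positive gate (3.21 and 1.31), and the E9.5 AGM had it at 0.17. Id2, its relative, had 30.6 against 213 CPM in the E11.5 AGM (interval -2.64 to -1.41) and ratios of 1.13 and 1.39 in the yolk sac pairs. The BMP receptor gene Bmpr1b had 3 and 211 counts, a ratio of -4.97 (-7.26 to -3.41), and Tgfb2, a TGF-beta ligand, stood at -1.09. Of 15 measured genes of the BMP and TGF-beta list 2 were higher and 6 lower, with a median of -0.89, against 14.9% and 15.5% of all genes. Bmpr2, the type II receptor, was at -0.02.

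Genes of Wnt signalling were lower or near the median. Rspo3, a secreted amplifier of Wnt signals, had 3 counts against 54, a ratio of -3.01 (-5.33 to -1.38), while the E9.5 yolk sac had it higher in the positive gate (3.30). Prickle1, of the planar polarity branch, had 43.5 against 157 CPM, a ratio of -1.05 (-1.61 to -0.53), beside 0.21, 1.85 and 0.52. Prickle1 was no longer 2-fold lower without macrophage-marker wells (-0.86) or with endothelial-marker wells alone (-0.59). Ror1, a Wnt5a receptor, stood at -3.01 (-3.78 to -2.33). Of 14 measured members of the list 8 were lower and 0 higher, with a median of -1.62, against 15.5% and 14.9% of all genes. Ctnnb1 (beta-catenin) was at -0.06 and Tcf7l2 at -0.05. The list was also low in the E9.5 AGM (7 of 14 lower, 1 higher, median -1.41). In the E11.5 yolk sac 7 of 11 were lower and 0 higher, with a median of -1.94. The E9.5 yolk sac had a median of 1.19 with 6 measured.

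Adgrg6, an adhesion receptor known from myelination and heart development, had 12 counts against 54, a ratio of -1.01 (-2.04 to -0.09). In the yolk sac pairs it stood at 3.89 and 3.26, and 8 of its 12 positive counts lay in endothelial-marker wells. With those wells alone the ratio of Adgrg6 was -0.38 and it was no longer 2-fold lower. The same held with at most 20% mitochondrial counts per well (-0.998), equal weight per well (-0.62), and without macrophage-marker (-0.48) or granulocyte-marker wells (-0.89). Nrk, a kinase with an embryonic pattern, stood at -2.02 (-2.89 to -1.24) and Thsd4, a microfibril protein, at -2.48 (-3.73 to -1.45), each between -0.37 and 0.68 in the other pairs that measured it. Sulf2, which trims sulfate from heparan chains, had 17 counts against 164, a ratio of -2.11 (-2.92 to -1.38). Gmps, an enzyme of GMP synthesis, stood at -1.38 (-2.03 to -0.79) and Amot, a regulator of Hippo signalling, at -1.47 (-2.36 to -0.67). Dpysl3, a cytoskeletal protein of migrating neurons, stood at -1.68 (-2.54 to -0.92) here and at 2.95 and 2.45 in the yolk sac pairs.

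Unc5c, a receptor for the guidance cue netrin (chromosome 3, 141465216 to 141834924), had 18.8 CPM in the positive and 416 in the negative pool. Its ratio of -3.67 (-4.48 to -2.95) compared with -1.92, -0.56 and -1.39 in the other pairs, all on the same side. It was found in 15 positive and 179 negative wells. Dcc, the other netrin receptor, had 2 counts against 135, a ratio of -4.91 (-7.97 to -3.03), and Sema3c, a semaphorin, 0 against 75, at least 11.2-fold lower. All 22 genes of the axon guidance list were measured, and 15 stood lower and 4 higher, against 15.5% and 14.9% of all genes. The list had a median of -2.32. Its medians in the other pairs were -1.97, 1.93 and -0.43, and with endothelial-marker wells alone it was -2.17 in the E11.5 AGM. Robo1, a receptor for Slit proteins, was at -0.79 (-1.13 to -0.46) in the AGM and at 3.52 and 1.43 in the yolk sac pairs.

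Other genes of the negative gate were hardly measured in the other pairs, which include the E9.5 AGM. Of 448 genes lower here with under 20 counts in 2 or more other pairs, 171 passed the minimums. Crabp1, which binds retinoic acid in the cell, had 363 CPM against 10.6, a ratio of -4.30 (-5.44 to -3.36), and -5.18 in the E9.5 AGM. Angptl1, an angiopoietin-like protein, had 72 counts and 0, at least 10.7-fold lower in the positive pool, Capn6, a calpain without protease activity, 65 and 0 (at least 9.67-fold), and Arnt2, a helix-loop-helix factor, 63 and 0 (at least 9.37-fold). Angptl1 lies inside Ralgps2 on the opposite strand. Other genes lay furthest out on the lower side, whether or not they were measured elsewhere. Mfap4, a microfibril protein, had 136 counts in 97 negative wells and 0 in the positive pool, at least 20.2-fold lower. Sulf1 stood at -4.38 (-5.71 to -3.32), the heparan sulfate proteoglycan Gpc6 at -3.55 (-3.92 to -3.19) with 1603 CPM in the negative pool, and the transcription factor Ebf2 at -4.39 (-6.03 to -3.15). For Sulf1, Gpc6 and Ebf2 the E11.5 yolk sac ratios were -0.27, -0.60 and 0.06, and their E9.5 ratios are not given here. They were chosen for distance from 0 in this pair. None was among the 14 genes named as set apart on the lower side.

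Mesenchymal markers were lower in the positive gate, though by less than in the other pairs. Of 11 measured, 9 stood at least 2-fold lower, against 15.5% of all genes. The list median was -1.60, beside -3.52, -4.41 and -3.29 elsewhere. Pdgfra, the PDGF receptor of mesenchyme, had 17.6 against 249.6 CPM, a ratio of -3.02 (-3.88 to -2.27), while the collagen Col1a1 had 90.6 against 379, a ratio of -1.27 (-1.64 to -0.91), beside -3.50, -4.89 and -3.46. Col1a1 was found in 58 positive wells. In the stem cell RNA wells of the chip it stood at 183 CPM, above the positive pool. Thinned counts of it were found in 11 of 46 such wells, 25 of 286 positive and 102 of 333 negative wells. In the E11.5 yolk sac its negative pool held 5284 counts and its positive pool 331. Wells with 3 or more mesenchymal markers, thinned, were 81 of 333 negative (24.3%, 19.8 to 29.3) and 7 of 286 positive wells (2.45%, 0.990 to 4.98), and 1 of 46 stem cell RNA wells. Chondrogenic markers, such as Col2a1 (-2.99) and Sox5 (-2.38), gave 26 negative wells (7.81%) and 1 positive well.

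Several markers of other trunk tissues passed the count minimum only through the negative pool, so that the direction of such members was largely set by the minimum. Over all measured genes 15.5% were lower and 14.9% higher, for comparison with the lists that follow. The somite and muscle list had 6 of 10 measured, with Meox1 and Meox2 each at 1 count against 48. The mesonephros list had Cdh6 at 1 count against 71 and Osr1 at 0 against 39 (at least 5.80-fold lower). Wt1, of the coelomic epithelium, had 2 counts against 47, a ratio of -3.39 (-6.48 to -1.46). All 5 measured trunk Hox genes were lower, led by Hoxa7 at -3.05, with a median of -1.44. The neural list had 4 of 6 lower and Stmn2 higher (1.61, 0.82 to 2.41). The smooth muscle list had 6 of 6 lower, with a median of -1.73 and Acta2 at -1.63. The endoderm list had 4 of 5 measured genes higher, with a median of 1.22, and Afp, the fetal plasma protein, stood at 239.9 against 152 CPM, while Apob (1.01) went to -0.11 in wells with 1000 or more genes.

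Factors by which the surroundings act on vessels and blood differed in direction. Of 12 measured niche ligands 6 were lower and 2 higher in the positive gate, against 15.5% and 14.9% of all genes. Their median was -1.24. The E9.5 AGM (6 of 12 lower, 2 higher, median -1.35) and the E11.5 yolk sac (7 of 12 lower, 2 higher, median -1.19) were alike. In the E9.5 yolk sac 7 of 11 were higher and 2 lower, with a median of 1.31. Ptn (pleiotrophin) in the E11.5 AGM had 1093 CPM in the negative and 68.2 in the positive pool, a ratio of -3.20 (-3.61 to -2.82). Mdk (midkine) stood at -2.40 (-2.80 to -2.01). Cxcl12, the chemokine that holds stem cells, had 249.6 against 18.8 CPM, a ratio of -2.93 (-3.76 to -2.20), beside -4.03, 0.48 and -1.31. Its receptor gene Cxcr4 had 0 counts in both pools. Kitl, the ligand of Kit, stood on the endothelial side, at 56.5 against 38.4 CPM, a ratio of 1.36 (0.73 to 1.99), and 28 of its 48 positive counts lay in endothelial-marker wells. In the other 3 pairs Kitl was at 1.15, 2.30 and 1.58. Angpt1, the ligand of Tek, stood at -0.80 (-1.37 to -0.26).

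The endothelial markers, higher in the positive gate of every pair, served as the check of the sort. Cdh5, the gene of VE-cadherin, had 406 CPM against 12.8, a ratio of 5.79 (5.02 to 6.67), and thinned counts of it were found in 82 of 286 positive and 7 of 333 negative wells. All 11 measured endothelial markers were higher (14.9% of all genes), with a median of 5.10, several of them measured mainly through positive-pool counts. Of these, Tie1 at 7.54 (5.02 to 12.86, 83 counts against 1) and Cd93 at 7.05 (5.16 to 10.11) lay furthest out, and Mmrn2, a matrix protein of vessels, had 58 counts against 0. Pecam1 stood at 5.71 and Kdr at 5.54. Of the 11, Tie1, Cd93 and Pecam1 were also set apart in this pair by the rule given for all genes (2.61%). Against 14.9% of all genes, 5 of 6 measured arterial and 6 of 7 venous genes were higher. Their medians were 2.43 and 2.06. Among arterial genes Sox17 stood at 4.97, Unc5b at 1.97, Jag1 at 1.56 and Efnb2 at 0.99. The venous genes ran from Nr2f2, a venous transcription factor, at -0.70 through Ephb4 at 1.03 and Nrp2 at 1.19 to Aplnr, the apelin receptor, at 6.05 (4.13 to 9.13), the last named for its place at the end of the range. Efnb2 and Ephb4 were at 5.75 and 6.36 in the E9.5 yolk sac. Notch1 was at 2.81 (1.97 to 3.72) and the Notch list at a median of 0.54, or -0.26 without centring, with 3 of 8 higher and 1 lower. Among collagens Col4a1, of basement membranes, was higher at 2.41 (2.17 to 2.65). Of the 23 measured collagens 15 were lower and 5 higher, against 15.5% and 14.9% of all genes.

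**Figure D5:**
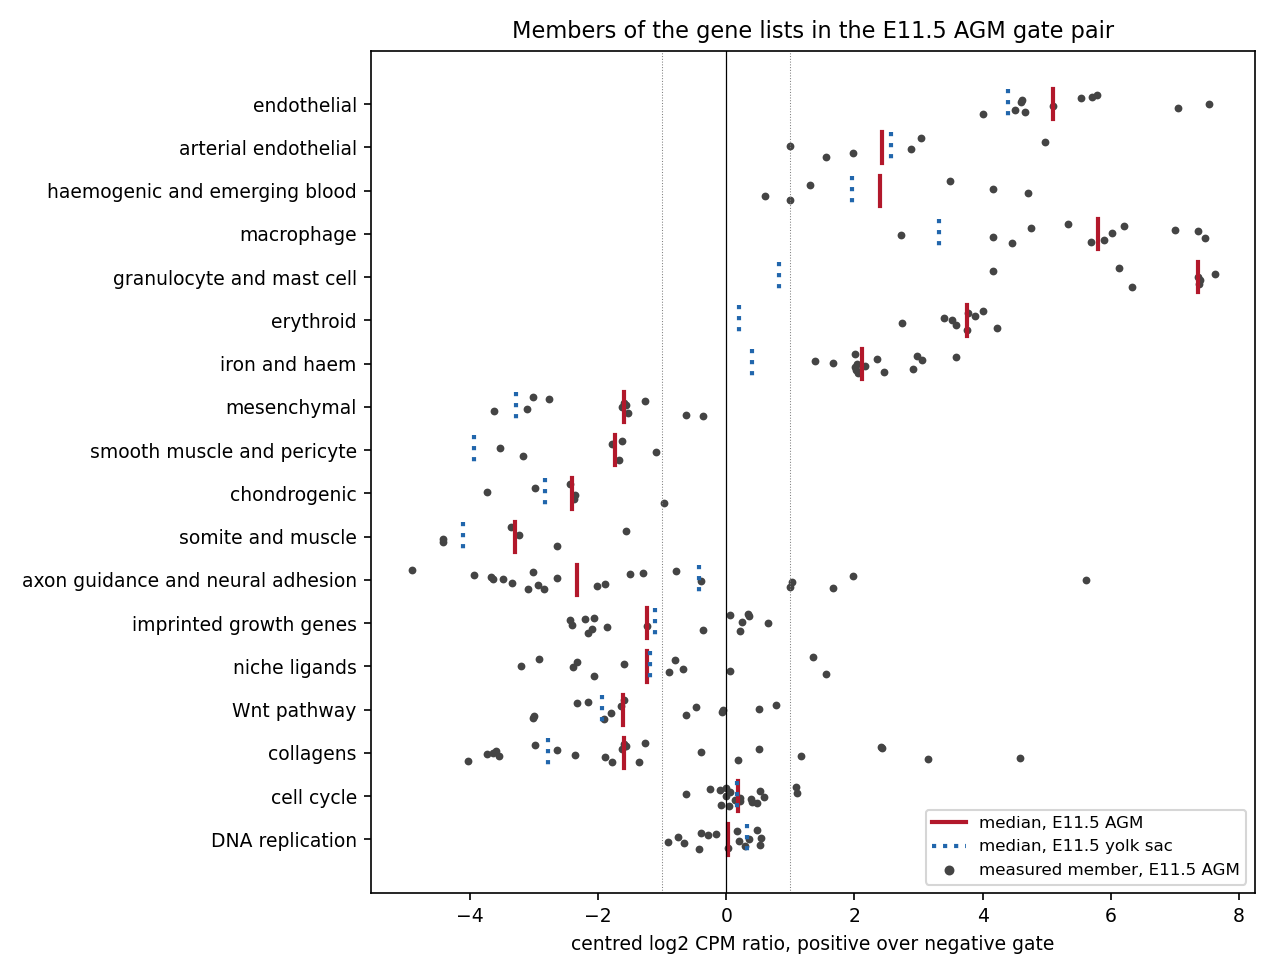
Centred log2 CPM ratio of each measured member (points) of 18 gene lists in the E11.5 AGM pair, with the list median (red bar) and the median in the E11.5 yolk sac (dotted blue bar). Macrophage (5.80), granulocyte (7.36) and erythroid (3.75) medians lie further to the right than in the yolk sac, and the DNA replication median lies at 0.03.

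The medians of proliferation and glycolysis genes lay within 2-fold of all genes. Of 18 measured cell cycle genes 2 were higher and 0 lower, with a median of 0.18. Mki67 was at 1.09 (0.89 to 1.29) and Top2a at 0.00 (-0.22 to 0.22). All 15 DNA replication genes were within 2-fold, with a median of 0.03. Glycolysis genes had a median of 0.33 with 5 of 15 higher, against 14.9% of all genes, and 2 of the 5 were set apart, the hexokinase Hk1 (1.31) and the glucose transporter Slc2a3 (1.98), both named for that reason. Without centring the medians of these 3 lists were -0.62, -0.77 and -0.47. Of the 4 measured interferon response genes 3 were higher: B2m, of the class I complex, at 2.68 (2.29 to 3.09), H2-D1 at 3.44 and Ifitm1 at 3.39 (2.57 to 4.30). Ifitm1 was lower in the positive gate of the E9.5 AGM (-1.92) and the E11.5 yolk sac (-1.82). Against the 14.9% of all genes higher and 15.5% lower, the S1P and chemokine list had 5 of 8 higher and 3 lower, adhesion and integrin genes 4 of 13 higher and 3 lower, retinoid genes 2 of 11 higher and 7 lower, and matrix glycoproteins 9 of 27 in each direction. Of 12 genes of VEGF and angiopoietin signalling 8 were higher and 3 lower. Of 3 measured steroid genes 2 were higher, with Hsd3b6 at 2.97. The lists of germ cells (Ifitm1), neural crest (Hand2, -2.79) and coelomic epithelium (Wt1) had 1 measured gene each.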

How the data were processed

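Each chip has 1 deposited table of whole-number counts by gene and well. Per the submitters' processing notes, the tools were FastQC, cutadapt and STAR, with mm10 (GRCm38). Tool versions, the counting step, whether it used strand, and whether molecular identifiers were collapsed are not given in the sources used here. The tables have 20823 (E11.5) and 20575 (E9.5) genes, of which 18323 are in both. Wells were grouped by the deposited State label of each well. Wells with 500 or more genes were summed per pool, and ratios were computed in Python 3.11.15 with numpy 2.4.6, pandas 2.3.3 and scipy 1.17.1, with exact 95% intervals from the conditional binomial and a floor of 3 counts. Each pair was centred on the median ratio of its genes with 20 or more counts. With 1 pool a group there are no replicates and no test was run. The calculation was tested on simulated data.

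The members and gene lists were chosen with earlier results of these data known. Named genes were, among genes set apart with 30 or more counts in the higher pool, a count in 5% or more of its wells and no well with over 25% of those counts, the 14 per direction whose interval lay furthest from the other pairs. Added were 6 per direction hardly measured elsewhere, 6 furthest from 0, 13 genes reported whatever their values and up to 4 members of each of 39 lists by counts. Mitochondrial, ribosomal protein, haemoglobin and unnamed genes were left out of the first groups. Mpo, Aplnr, Hk1, Slc2a3, the genes given at 0 counts in both pools and the overlapping genes are outside this rule and were chosen after their values were seen. Alternatives were other well filters, scalings (edgeR 4.0.16 TMM in R 4.3.3), count minimums, doublets left out (Scrublet in scanpy 1.11.5), wells with macrophage markers left out and each other pair left out. Endothelial-marker wells alone and granulocyte-marker wells left out were chosen after seeing the data. Gene positions are those of GENCODE M21 and promoters those of RefSeq.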

Additional observations from a re-analysis of the deposited data

Results flagged for a closer look

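Of the genes described as set apart, those given here stood at least 2-fold on 1 side in the E11.5 AGM and at least 2-fold on the other side in another gate pair, with both intervals clear of 0. With 1 pool a group the difference between pairs was not tested. On the higher side were Cdk8 (2.25, against -1.35 for the E9.5 yolk sac), Camk1d (2.83 against -2.28), Cmss1 (2.12 against -1.57) and Fth1 (2.91 against -1.66). The negative pool of the E9.5 yolk sac held haemoglobin as 37.0% of its counts, and that of the E11.5 AGM 3.47%. Spearman's rho of Cdk8, Camk1d, Cmss1 and Fth1 with the haemoglobin share was 0.079, 0.21, 0.072 and 0.44 across E11.5 AGM positive wells. Across the negative wells it was 0.16, -0.023, -0.12 and 0.086. The part of haemoglobin in the ratios of these genes was not tested. Pf4 stood at 4.84, against -2.30 in the E9.5 AGM and -2.75 in the E9.5 yolk sac.

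On the lower side, Adgrg6 stood at -1.01, against 3.89 and 3.26 for yolk sac at E9.5 and E11.5, Id3 at -1.60 against 3.21 and 1.31, and Dpysl3 at -1.68 against 2.95 and 2.45. Peg3 (-2.43 against 1.14), Hmga2 (-1.73 against 2.54), Rspo3 (-3.01 against 3.30), Cdkn1c (-2.42 against 1.44) and Prickle1 (-1.05 against 1.85) were on the other side for the E9.5 yolk sac. Adgrg6 and Prickle1 lost the 2-fold difference in the E11.5 AGM with endothelial-marker wells alone and without macrophage-marker wells. The AGM at E9.5 had Id3, Hmga2, Dpysl3, Rspo3 and Prickle1 between -0.42 and 0.42.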

How the results depend on the processing

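No paired analysis was possible because each pool is 1 sample. Of 134 named genes at least 2-fold apart, all kept their direction in 11 of 13 settings. The exception was Apob, which reversed to -0.11 in wells with 1000 or more genes and to -0.36 with endothelial-marker wells alone. A 2-fold difference on the same side remained for 119 without centring and 125 with totals free of haemoglobin and mitochondrial genes. It remained for 127 without macrophage-marker wells, 119 of 133 with endothelial-marker wells alone, and 128 to 134 in the other settings. Without centring 593 genes were higher and 3477 lower, and 65 and 784 were set apart. With totals free of haemoglobin and mitochondrial genes these counts were 836, 2077, 109 and 462, with 50 or more counts per gene 655, 607, 90 and 61, and with 1 or more 2938, 2547, 605 and 644. Without the E9.5 AGM pair 489 and 442 genes were set apart, without the E9.5 yolk sac pair 357 and 332, and without the E11.5 yolk sac pair 347 on the lower side. A gap of 2 in place of 1 left 50 and 26. With wells of macrophage markers left out, 12 of the 14 named higher genes and 10 of the 14 lower ones were still set apart, and with endothelial-marker wells alone 8 and 11.

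Shares of wells depended on depth: unthinned, 47.4% of positive wells held 3 endothelial and 19.5% 3 macrophage markers, and 69.5% and 36.1% of negative wells held mesenchymal and chondrogenic markers. With 2 or more markers the thinned shares were 37.8%, 20.98%, 49.8% and 26.4%, and 5.24% for granulocyte markers. Depth limits single wells: the median of 749 genes per positive well leaves most genes uncounted in any 1 well.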
